A study of Mus musculus with 6 samples.

Results

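The genes described here encode respiratory complexes II, III, IV and V of mitochondria, cytochrome c, and named assembly factors of these complexes. They were taken by symbol from kidney RNA sequencing of 24-month-old mice: genes starting with Sdh, Uqcr, Uqcc, Atp5 or Cox and a digit, together with Cyc1, Cycs and 6 mitochondrially encoded genes. The names matched 68 of 13696 listed genes, and 67 of them reached 1 FPKM in at least 3 of the 6 libraries. FPKM is the fragments counted on a transcript divided by its length in kilobases and by the library's mapped fragments. Levels of different genes are therefore set side by side, but only roughly. The values of mt-Atp8 and mt-Atp6, described further on, differ although a single messenger RNA carries both. The 67 members comprised 8 genes of complex II, 13 of complex III, 27 of complex IV, 18 of complex V and Cycs, with 61 encoded in the nucleus and 6 in mitochondrial DNA.

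Kidneys of 2 groups were compared, both 24 months old: 3 libraries labelled fat-1 knockin (fat-1) and 3 labelled WT. The fat-1 gene of nematodes encodes a desaturase that makes omega-3 from omega-6 polyunsaturated fatty acids. The labels give neither the promoter that drives it, nor strain, sex or diet, and they do not say whether each library came from a separate animal, so a p-value here speaks of the spread among the 6 libraries, which may be technical. RNA of the inserted gene is not analysed here and could not serve as a check of the genotypes.

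Complexes III and IV pass electrons to oxygen and pump protons, complex II feeds in electrons from succinate, and complex V, the ATP synthase, uses the proton gradient to make ATP. Complex II is encoded in the nucleus alone, whereas complexes III, IV and V join nuclear-encoded subunits to a few made inside the mitochondrion. Proximal tubule cells of the kidney, which reabsorb most of the filtered salt and solutes, are rich in mitochondria and depend on this system.

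The sequences below are of 4 genes with separated groups of libraries, described further on. They were picked because their promoters differ in the letters of textbook motifs of respiratory-chain genes, so that contrast follows from the choice. Cox7b and Cox15, also separated, are not printed, and the Cox15 promoter held GABPA/ETS letters. Each holds 300 bases around the transcript start, mostly upstream of it, from RefSeq on GRCm38.p6, 5′ to 3′ on the strand of the gene. The motifs searched on both strands were the NRF1 consensus, GABPA/ETS (CCGGAAG), YY1 (AAGATGG) and ERR (TCAAGGTCA), and capitals mark each match. Of the promoters of 27025 genes, 5.19% held the NRF1 letters, 9.93% GABPA/ETS, 7.28% YY1 and 0.466% ERR. The Cox6b2 promoter (chr7:4753045-4753344, minus strand) and the Cox7a1 promoter (chr7:30183921-30184220, plus strand) held none of them. The Uqcc2 promoter (chr17:27133842-27134141, minus strand) held NRF1 and YY1 letters, and the Cox10 promoter (chr11:64079423-64079722, minus strand) GABPA/ETS and YY1 letters. A match is a run of letters and not a measured binding site. Only 47 of the 61 nuclear-encoded members, or 77%, matched an entry in this table, so a share of members with a motif is void and is not given.
Cox6b2: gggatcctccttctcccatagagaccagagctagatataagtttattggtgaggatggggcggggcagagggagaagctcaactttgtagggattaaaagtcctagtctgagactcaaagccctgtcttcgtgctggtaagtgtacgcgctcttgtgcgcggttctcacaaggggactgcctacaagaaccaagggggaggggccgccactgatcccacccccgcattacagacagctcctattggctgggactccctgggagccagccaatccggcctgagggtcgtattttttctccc
Cox7a1: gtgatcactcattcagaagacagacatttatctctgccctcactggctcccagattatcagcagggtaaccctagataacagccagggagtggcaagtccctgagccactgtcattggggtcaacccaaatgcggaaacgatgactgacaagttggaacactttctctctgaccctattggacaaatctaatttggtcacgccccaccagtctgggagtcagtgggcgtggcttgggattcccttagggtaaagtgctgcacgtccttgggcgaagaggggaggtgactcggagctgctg
Uqcc2: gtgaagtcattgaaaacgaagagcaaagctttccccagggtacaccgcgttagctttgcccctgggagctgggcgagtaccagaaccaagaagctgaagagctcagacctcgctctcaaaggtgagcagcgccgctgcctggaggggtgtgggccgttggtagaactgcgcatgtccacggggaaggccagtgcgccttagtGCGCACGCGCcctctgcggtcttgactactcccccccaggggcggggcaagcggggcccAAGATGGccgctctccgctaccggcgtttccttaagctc
Cox10: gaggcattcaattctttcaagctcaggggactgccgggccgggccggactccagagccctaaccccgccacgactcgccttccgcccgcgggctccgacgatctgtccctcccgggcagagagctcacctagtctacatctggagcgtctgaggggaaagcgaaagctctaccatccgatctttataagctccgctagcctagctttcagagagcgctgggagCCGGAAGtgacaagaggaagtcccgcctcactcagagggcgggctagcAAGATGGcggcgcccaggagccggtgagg

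Of the 67 members, 0 passed an adjusted p of 0.05 in limma (were called), where 21 of 11698 tested genes passed, or 0.180%. Cox6b2, a form of a small complex IV subunit known from testis, had the largest positive difference and an unadjusted p under 0.05; 1 member of 67 did so in that direction, against 5.80% of all tested genes. Cox7a1, the heart and muscle form of another complex IV subunit, was the 1 member with an unadjusted p under 0.05 in the other direction, against 4.16% of all tested genes. The 95% interval of the difference lay within a 2-fold change either way for 65 of the 67 members and within a 1.5-fold change for 43. Cox6b2 and Cox6a2 were the 2 members whose interval went past 2-fold. A p that misses the threshold does not show that the groups are alike. In whole tissue, fewer cells of a type and less RNA per cell cannot be told apart.

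The members lay mostly just below zero. The log2 difference (log2(FPKM + 1), WT subtracted from fat-1) was negative for 48 of 67 members, or 71.6%, against 48.8% of all tested genes. Its median was -0.08 over the members and 0.01 over all tested genes. This count followed single libraries: without WT replicate 3 the difference was negative for 28 and positive for 38 of 66 members tested, and without fat-1 replicate 3 it was negative for 36 and positive for 30 of 66. It was negative for 54 of 66 without WT replicate 1, for 52 without fat-1 replicate 1, for 46 without fat-1 replicate 2 and for 41 without WT replicate 2.

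**Figure D1:**
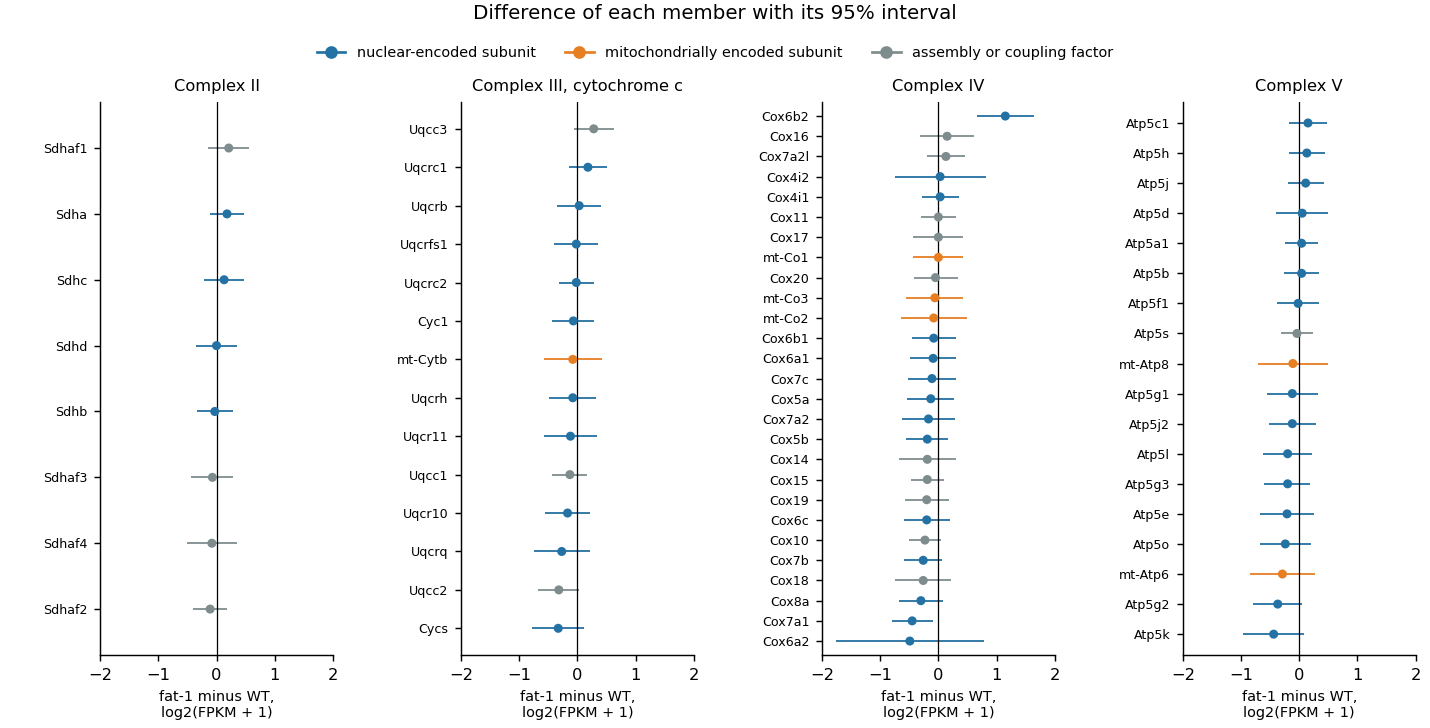
Log2 difference of each of the 67 members (log2(FPKM + 1) scale, fat-1 minus WT), grouped by complex and coloured by class of gene, with bars for the 95% interval. Cox6b2 stands alone at 1.15, and all other members lie between -0.49 and 0.28.

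Summed over all 67 genes, the level was 47623, 52083 and 40697 FPKM in the fat-1 libraries and 39482, 53665 and 55017 FPKM in the WT libraries. The groups overlapped, since the lowest and the highest library were both WT. These sums took between 10.1% and 13.0% of all FPKM in a library. Complex II summed to 915 ± 64.1 FPKM in fat-1 and 876 ± 73.0 FPKM in WT (SD, n = 3 each). Complex III with cytochrome c summed to 10868 ± 1496 FPKM in fat-1 and 11527 ± 2158 FPKM in WT. Complex IV reached 25083 ± 2959 FPKM in fat-1 and 26232 ± 4651 FPKM in WT, and complex V 9934 ± 1284 FPKM in fat-1 and 10753 ± 1807 FPKM in WT. In each of these 4 complexes the difference of the means was smaller than the SD of either group.

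The members varied together between libraries of the same group. WT replicate 3 held the highest level of 38 of the 67 members, while WT replicate 1 held the lowest level of 24 and fat-1 replicate 3 that of 23. Measured as the median deviation from a gene's own mean on the log2 scale, the members lay at 0.09, -0.04 and -0.16 in the fat-1 libraries and at -0.16, 0.05 and 0.21 in the WT libraries. Over the 6 libraries the median pairwise Pearson r was 0.73 among 39 nuclear-encoded subunits (tissue isoforms left out), 0.89 among the 6 mitochondrially encoded genes and 0.28 among 18 assembly factors. These correlations are descriptions, since the genes share the same 6 libraries and their scaling.

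**Figure D2:**
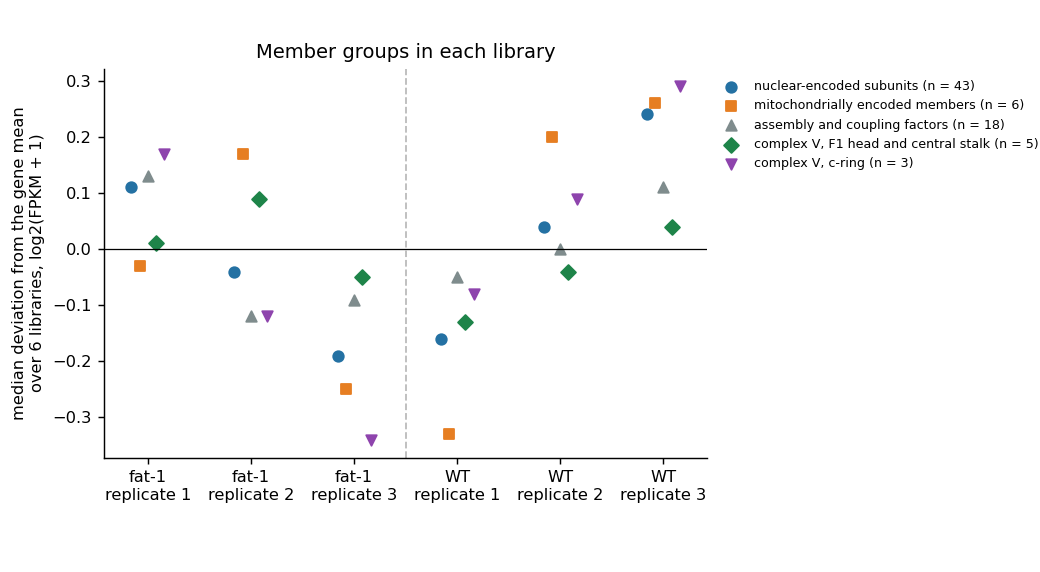
Median deviation of members from their own mean (log2 scale) in each library, by class of gene, fat-1 libraries left of WT libraries. WT replicate 3 is high and WT replicate 1 and fat-1 replicate 3 are low, so over all nuclear-encoded subunits the WT libraries span -0.16 to 0.24 and the fat-1 libraries -0.19 to 0.11.

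Marker genes of kidney cell types also differed between libraries. The 12 markers of the first segments of the proximal tubule summed to 3452, 4118 and 2767 FPKM in fat-1 and to 3198, 3922 and 3930 FPKM in WT. All 12 were detected and 0 called. Of these 12, 2 (Slc22a8 and Slc13a3) were higher in each fat-1 library than in each WT library, and 0 were lower. Their median deviations were -0.05, 0.20 and -0.27 in fat-1 and -0.15, 0.18 and 0.04 in WT. The mitochondrially encoded members lay at -0.03, 0.17 and -0.25 in fat-1 and at -0.33, 0.20 and 0.26 in WT. The 61 nuclear-encoded members lay at 0.11, -0.06 and -0.15 in fat-1 and at -0.15, 0.04 and 0.21 in WT. Median deviations of the 7 thick ascending limb markers were -0.05, -0.54 and 0.46 in fat-1 and 0.13, 0.24 and -0.03 in WT. The 6 macrophage markers summed to 120, 79.3 and 137 FPKM in fat-1 and to 433, 75.3 and 86.3 FPKM in WT, so WT replicate 1 stood apart. Over all tested genes, 8.33% had every fat-1 library above every WT library, and 6.86% had every one below. All 8 endothelial markers were higher in each fat-1 library than in each WT library, with 1 called. They summed to 168, 201 and 228 FPKM in fat-1 and 94.3, 82.7 and 101 FPKM in WT. Of 5 podocyte markers, 4 were higher in each fat-1 library than in each WT library, and the list summed to 87.6, 102 and 90.7 FPKM in fat-1 and 60.8, 58.1 and 68.5 FPKM in WT. Of 6 intercalated cell markers, 4 were lower in each fat-1 library than in each WT library, with sums of 78.6, 78.5 and 89.4 FPKM in fat-1 and 115, 118 and 117 FPKM in WT. All 5 markers of the distal convoluted tubule had negative differences, with sums of 244, 305 and 200 FPKM in fat-1 and 512, 350 and 396 FPKM in WT. Of these 5, 1 (Calb1) was lower in each fat-1 library than in each WT library. The third segment of the proximal tubule had negative differences in 5 of 7 markers and positive ones in 2, with a median of -0.87. The list summed to 302, 446 and 607 FPKM in fat-1 and 452, 1004 and 805 FPKM in WT. Its only marker with separated groups was positive: Slc5a1, with a difference of 0.51 and its closest libraries at 27.0 FPKM in fat-1 and 26.7 FPKM in WT. None of these podocyte, intercalated cell or tubule markers was called. The part of these cell types in the members' values was not tested. With fat-1 replicate 3 and WT replicate 1 both left out, a choice made after seeing the data, 0 of 66 members were called and 50 had a negative difference.

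Complex II, succinate dehydrogenase, had differences close to zero. Sdha, the flavoprotein that oxidises succinate, measured 284, 319 and 282 FPKM in fat-1 and 236, 285 and 259 FPKM in WT. Its lowest fat-1 library was below the highest WT library, and the difference was 0.18 ± 0.12 (SE; adjusted p = 0.749 in limma). Sdhb, the iron-sulphur subunit, averaged 246 ± 7.65 FPKM in fat-1 and 252 ± 33.1 FPKM in WT (SD, n = 3 each). The membrane anchors Sdhc and Sdhd averaged 101 ± 13.6 and 221 ± 38.3 FPKM in fat-1, and 91.7 ± 9.49 and 219 ± 12.3 FPKM in WT. Sdhc lay at less than the level of the other 3 subunits in every library, with a ratio to the median of the 4 subunits of 0.450, 0.421 and 0.422 in fat-1 and of 0.388, 0.384 and 0.417 in WT. Those ratios did not overlap between the groups, and no test was made of them. Such ratios were computed for every nuclear-encoded subunit of complexes II to V, without the tissue isoforms of complex IV. They also separated for Uqcrc1, Uqcrq, Cox5b, Cox7b and Cox8a, and overlapped for the rest, with all of complex V. No share over all genes was computed as a background. The assembly factors Sdhaf1, Sdhaf2, Sdhaf3 and Sdhaf4, which help to insert iron-sulphur clusters or flavin, averaged between 2.35 and 26.9 FPKM in fat-1 and between 2.52 and 28.8 FPKM in WT. Their differences ran from -0.11 for Sdhaf2 to 0.21 for Sdhaf1.

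Complex III and cytochrome c gave 3 positive and 11 negative differences, with a median of -0.08. Over all 6 libraries its 9 nuclear-encoded subunits averaged between 131 FPKM for Uqcrq and 406 FPKM for Uqcrh, and their differences ran from -0.27 for Uqcrq to 0.18 for Uqcrc1. Cyc1, the cytochrome c1 subunit, averaged 190 ± 24.7 FPKM in fat-1 and 199 ± 24.1 FPKM in WT, and Uqcrfs1, the Rieske iron-sulphur subunit, 254 ± 24.1 FPKM in fat-1 and 259 ± 43.8 FPKM in WT (SD, n = 3 each). Cycs, the soluble carrier from complex III to complex IV, measured 122, 122 and 90.5 FPKM in fat-1 and 113, 148 and 162 FPKM in WT. Its groups overlapped only through WT replicate 1, and the difference was -0.33 ± 0.19 (SE; adjusted p = 0.677 in limma). The core protein Uqcrc1 averaged 0.802 ± 0.0399 of the median of the 9 nuclear-encoded subunits in fat-1 and 0.684 ± 0.0355 in WT, and these ratios did not overlap. For Uqcrq, a small subunit, the ratio was 0.473 ± 0.0454 in fat-1 and 0.551 ± 0.0236 in WT, again without overlap.

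The 3 assembly factors of complex III gave 1 positive and 2 negative differences. Uqcc2, needed for making cytochrome b, measured 45.5, 33.6 and 45.6 FPKM in fat-1 and 51.5, 48.9 and 54.7 FPKM in WT. Every fat-1 library was below every WT library, with a difference of -0.32 ± 0.15 (SE; adjusted p = 0.562 in limma). Uqcc3, a small inner-membrane assembly factor of the same complex, measured 53.2, 43.2 and 44.9 FPKM in fat-1 and 38.1, 33.5 and 44.3 FPKM in WT. The groups overlapped narrowly, with a difference of 0.28 ± 0.14 (adjusted p = 0.625 in limma). Uqcc1 averaged 21.1 ± 2.16 FPKM in fat-1 and 23.3 ± 2.34 FPKM in WT.

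Complex IV, cytochrome c oxidase, held the members with the widest differences. Cox6b2 (chromosome 7, 4751792 to 4753094, mm10) measured 17.0, 13.1 and 12.3 FPKM in fat-1 and 7.26, 6.01 and 4.28 FPKM in WT. All 3 fat-1 libraries were above all 3 WT libraries, with means of 14.1 ± 2.49 FPKM in fat-1 and 5.85 ± 1.49 FPKM in WT (SD, n = 3 each) and a difference of 1.15 ± 0.21 (SE, 95% interval 0.66 to 1.65). The unadjusted p was 0.000896 and the adjusted p in limma 0.103. Over 15 alternatives the difference stayed between 0.98 and 1.39, with 0 calls. The adjusted p in limma ran from 0.0753 without WT replicate 1 to 0.565 with the top transcript only. Its promoter, shown above, held none of the 4 motifs.

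Cox6b2 had 7 listed transcripts. Transcript Cox6b2-201 measured 7.07, 5.26 and 1.03 FPKM in fat-1 and 0.986, 0.940 and 0.957 FPKM in WT, so it was low in fat-1 replicate 3. Transcript Cox6b2-203 measured 3.85, 2.90 and 3.34 FPKM in fat-1 and 1.10, 0.753 and 0.263 FPKM in WT. The common form Cox6b1 was far more abundant, at 510 ± 55.9 FPKM in fat-1 and 541 ± 84.8 FPKM in WT. Cox6b2 therefore made up 2.90%, 2.54% and 2.62% of subunit 6b RNA in fat-1 and 1.59%, 1.07% and 0.689% in WT.

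Cox7a1 (chromosome 7, 30184144 to 30186078) measured 23.5, 24.5 and 24.8 FPKM in fat-1 and 29.1, 31.4 and 41.3 FPKM in WT. Every fat-1 library was below every WT library, and WT replicate 3 lay far above the other 2. The difference was -0.45 ± 0.15 (SE, 95% interval -0.80 to -0.10), with an unadjusted p of 0.0194 and an adjusted p of 0.356 in limma. Over 15 alternatives it lay between -0.57 and -0.31, with adjusted p from 0.201 to 0.668. The general form Cox7a2 averaged 339 ± 58.2 FPKM in fat-1 and 383 ± 71.3 FPKM in WT. The share of Cox7a1 in the pair was 5.70%, 6.51% and 8.28% in fat-1 and 8.49%, 7.64% and 8.31% in WT, which overlap.

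Other tissue forms of complex IV lay near 1 FPKM. Cox4i2, a lung-enriched form of subunit 4, measured 1.22, 0.551 and 1.35 FPKM in fat-1 and 1.87, 0.324 and 0.992 FPKM in WT, while the common Cox4i1 averaged 463 ± 21.4 FPKM in fat-1 and 455 ± 58.5 FPKM in WT. Cox6a2, the muscle form of subunit 6a, measured 0.582, 1.63 and 0.531 FPKM in fat-1 and 0.399, 4.80 and 1.18 FPKM in WT, where WT replicate 2 set the mean. Both lay just inside the membership threshold, in 3 libraries each. Cox8b, the muscle and brown fat form of subunit 8, lay just outside at 0.621, 0.807 and 0.193 FPKM in fat-1 and 0.272, 2.16 and 1.02 FPKM in WT. Of 5 skeletal muscle markers, 2 were listed, and they summed to between 1.89 and 2.37 FPKM in fat-1 and between 1.70 and 2.66 FPKM in WT. Most of this was Mylpf, at 1.67 to 2.65 FPKM in the 6 libraries. The other marker, Ckm, measured 0, 0 and 0.0959 FPKM in fat-1 and 0, 0.832 and 0.0287 FPKM in WT. The part of muscle RNA in these values was not tested.

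**Figure D3:**
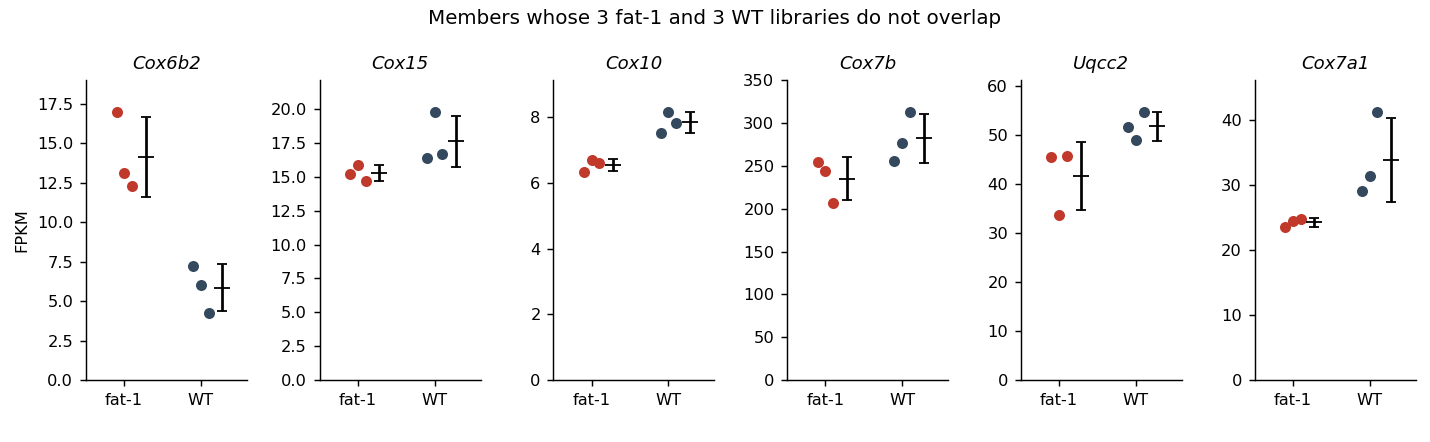
FPKM of the 6 members whose 3 fat-1 and 3 WT libraries do not overlap, with fat-1 left of WT in each panel and bars for mean ± SD. Cox6b2 is the 1 gene of these that is higher in fat-1.

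Members with separated groups numbered 1 above and 5 below. The share of all tested genes with every fat-1 library above every WT library was 8.33%, and 6.86% had every one below, so 5 of 67 members below is near its background and 1 of 67 above is under it. Besides Cox6b2, Cox7a1 and Uqcc2, they were Cox7b, Cox10 and Cox15. Cox7b, a small structural subunit, measured 254, 244 and 207 FPKM in fat-1 and 256, 277 and 313 FPKM in WT, so the closest libraries nearly met. Cox10 and Cox15, which make the haem a of complex IV, lay lower, at 6.35, 6.70 and 6.60 FPKM for Cox10 in fat-1 and 7.52, 8.17 and 7.84 FPKM in WT. Cox15 measured 15.2, 15.9 and 14.7 FPKM in fat-1 and 16.4, 19.8 and 16.7 FPKM in WT. Their differences were -0.26 ± 0.14 for Cox7b, -0.23 ± 0.12 for Cox10 and -0.19 ± 0.12 for Cox15 (SE), with adjusted p of 0.630, 0.624 and 0.711 in limma. The numbers depended on which library was used. Without WT replicate 1 there were 1 above and 15 below (20.4% and 11.8% of all tested genes), and without fat-1 replicate 1 there were 3 above and 16 below (12.6% and 13.0%). Without WT replicate 3 there were 9 above and 7 below (11.6% and 10.5%). Without WT replicate 2 there were 2 above and 5 below (11.1% and 11.2%), without fat-1 replicate 2 there were 3 and 6 (14.2% and 8.87%), and without fat-1 replicate 3 there were 2 and 6 (11.1% and 14%).

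The remaining structural subunits of complex IV were abundant, and their groups overlapped. Cox8a averaged 479 ± 81.0 FPKM in fat-1 and 585 ± 50.3 FPKM in WT, a difference of -0.30 ± 0.16 (SE; adjusted p = 0.642 in limma). Cox7c averaged 428 ± 60.5 FPKM in fat-1 and 464 ± 79.3 FPKM in WT. Relative to the median of 10 common nuclear-encoded subunits, Cox5b held 0.607 ± 0.00388 in fat-1 and 0.651 ± 0.0276 in WT, and Cox8a held 1.23 ± 0.0549 in fat-1 and 1.42 ± 0.111 in WT. Both ratios were separated between the groups, as was that of Cox7b, though the closest libraries for Cox8a both round to 1.29. These ratios have no test. The 10 assembly factors averaged between 2.73 FPKM for Cox18 and 154 FPKM for Cox7a2l over all libraries, and their differences ran from -0.26 for Cox18 to 0.15 for Cox16. They had a median difference of -0.12, with 2 positive and 8 negative. Cox17, a copper carrier, measured 161, 121 and 123 FPKM in fat-1 and 118, 123 and 166 FPKM in WT. Cox7a2l, which joins complexes III and IV into supercomplexes, averaged 160 ± 16.9 FPKM in fat-1 and 147 ± 15.6 FPKM in WT.

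Differences in complex V are given by location in the enzyme. In F1, the catalytic head with its central stalk, 4 of 5 subunits had positive differences (median 0.04). The catalytic beta subunit gene Atp5b averaged 786 ± 55.8 FPKM in fat-1 and 763 ± 63.5 FPKM in WT, and the alpha subunit gene Atp5a1 520 ± 25.8 FPKM in fat-1 and 508 ± 42.2 FPKM in WT. All 3 genes of the c-ring, the rotor that protons turn, had negative differences, with a median of -0.20. Atp5g2 measured 168, 124 and 109 FPKM in fat-1 and 165, 162 and 185 FPKM in WT, a difference of -0.37 ± 0.18 (SE; adjusted p = 0.589 in limma), with fat-1 replicate 1 inside the WT range. Atp5g3 averaged 551 ± 85.3 FPKM in fat-1 and 631 ± 82.3 FPKM in WT, and Atp5g1 170 ± 38.7 FPKM in fat-1 and 182 ± 19.8 FPKM in WT. The 3 genes encode the same mature protein, and Atp5g3 supplied 64.6 ± 1.88% of their summed FPKM in fat-1 and 64.1 ± 1.17% in WT.

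The small subunits of the membrane part also had negative differences, 3 of 3 with a median of -0.20. Atp5k, the e subunit that takes part in ATP synthase dimers, measured 311, 278 and 222 FPKM in fat-1 and 276, 391 and 447 FPKM in WT. WT replicate 1 lay within the fat-1 range, and the difference was -0.44 ± 0.22 (SE; adjusted p = 0.605 in limma). Among the 4 genes of the peripheral stalk, 2 had a positive and 2 a negative difference, from -0.24 for Atp5o to 0.13 for Atp5h. The 15 nuclear-encoded subunits averaged between 105 FPKM for Atp5j and 775 FPKM for Atp5b over all libraries. Atp5s, a coupling factor, measured 11.2, 12.6 and 11.2 FPKM in fat-1 and 11.5, 11.8 and 12.6 FPKM in WT. No test compared the head, ring and stalk.

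Atp5c1, the gamma subunit of the central shaft, averaged 325 ± 39.2 FPKM in fat-1 and 291 ± 20.4 FPKM in WT as a gene. Its transcripts were divided differently among the libraries. Transcript Atp5c1-203 measured 114, 331 and 311 FPKM in fat-1 and 175, 124 and 132 FPKM in WT. Transcript Atp5c1-202 measured 161, 7.81 and 19.4 FPKM in fat-1 and 100, 151 and 178 FPKM in WT. Transcript Atp5c1-203 made up most of the gene in fat-1 replicates 2 and 3 and, to a lesser degree, in WT replicate 1. In fat-1 replicate 1 it lay below all 3 WT libraries, and transcript Atp5c1-202 lay within the WT range. The sources used here do not say how reads were divided between transcripts.

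**Figure D4:**
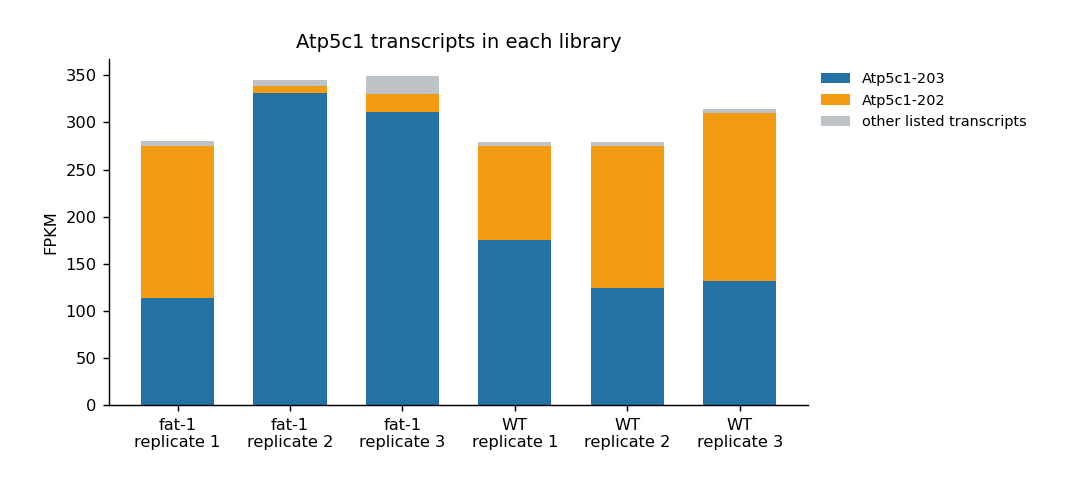
FPKM of the listed Atp5c1 transcripts, stacked in 1 bar per library, fat-1 left of WT. Transcript 203 dominates in fat-1 replicates 2 and 3, whereas in fat-1 replicate 1 and the WT libraries transcripts 202 and 203 both lie between 100 and 178 FPKM.

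The 6 mitochondrially encoded members had a median far above that of the nuclear subunits, although mt-Atp6, the lowest of them, averaged 1121 FPKM over all libraries against 775 FPKM for Atp5b, the highest nuclear-encoded member. The median level of these genes was 19.2, 23.8 and 21.3 times that of nuclear-encoded subunits of complexes III to V in fat-1, and 16.9, 22.9 and 21.5 times in WT, and these ratios overlapped. Gene mt-Co1, the catalytic subunit of complex IV, measured 9553, 11117 and 8220 FPKM in fat-1 and 8235, 10759 and 9837 FPKM in WT. Its difference was 0.00 ± 0.18 (SE), and -0.02 with trimmed-mean or median-of-ratios scaling. Gene mt-Cytb, the cytochrome b of complex III, averaged 8245 ± 1330 FPKM in fat-1 and 8762 ± 1770 FPKM in WT. The other core subunits of complex IV, mt-Co2 and mt-Co3, averaged 5820 ± 722 and 5231 ± 584 FPKM in fat-1, and 6282 ± 1756 and 5531 ± 1194 FPKM in WT. None of the 6 was called, and the lowest adjusted p in limma was 0.818. Near-identical copies of mitochondrial genes lie in the nuclear genome, and the sources used here do not say how shared reads were counted.

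A pair of mitochondrial genes of complex V share bases, and the effect of this on their values was not tested. The open reading frames of mt-Atp8 and mt-Atp6 overlap for 43 bases (chrM:7927-7969, mm10, plus strand), or 21.1% of the 204 bases of mt-Atp8. The shared stretch, from GENCODE M21 transcripts, is printed with the start codon of mt-Atp6 in capitals.
mt-Atp8 and mt-Atp6: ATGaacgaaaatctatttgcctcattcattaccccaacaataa

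Reads within these bases fit both genes. The proton channel gene mt-Atp6 measured 1071, 1154 and 789 FPKM in fat-1 and 899, 1366 and 1447 FPKM in WT, a difference of -0.29 ± 0.24 (SE; adjusted p = 0.818 in limma). Its short neighbour mt-Atp8 measured 3597, 5248 and 3449 FPKM in fat-1 and 3315, 5643 and 4380 FPKM in WT. The groups overlapped for both genes, and the level of mt-Atp8 was above that of mt-Atp6 in all 6 libraries, although a single messenger RNA carries both reading frames.

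**Figure D5:**
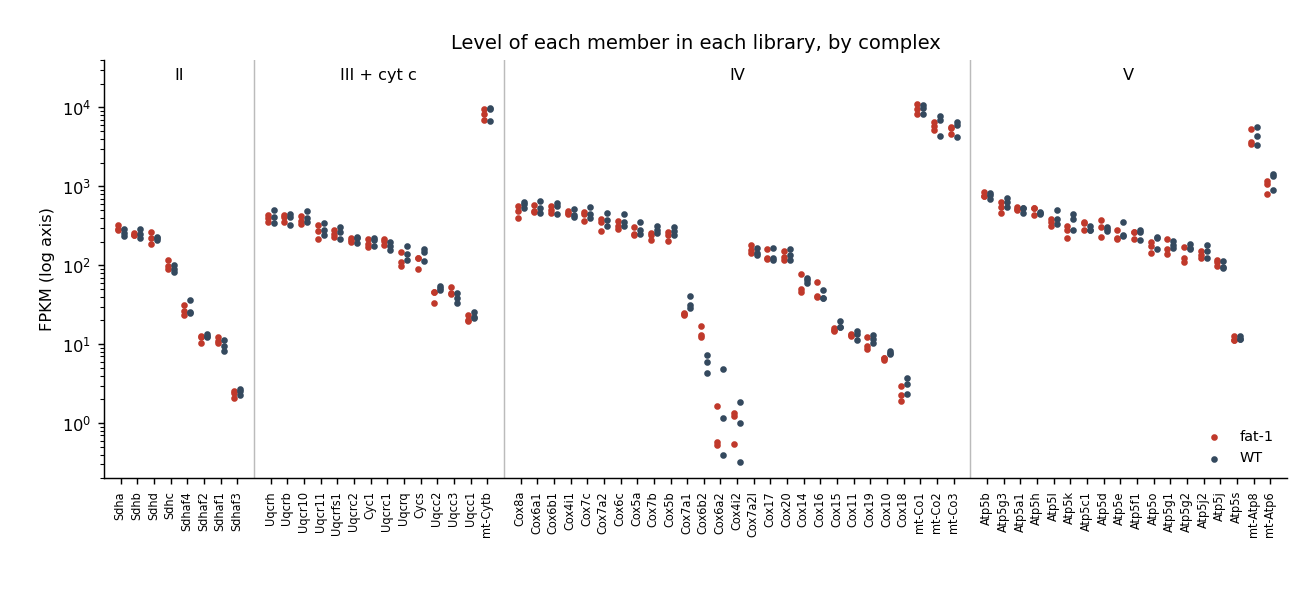
Level of each member in FPKM on a log axis, in every library, ordered by complex, with fat-1 and WT points apart by colour. The 6 mitochondrially encoded genes lie at 789 FPKM or more, and Cox4i2 and Cox6a2 are lowest.

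Genes that work with these complexes also gave no calls. Of 31 assembly and partner genes tested, 0 were called, with 14 positive and 17 negative differences and a median of -0.02. Etfdh, which passes electrons from fatty acid oxidation to ubiquinone, was the 1 gene of these with an unadjusted p under 0.05, at 119 ± 22.7 FPKM in fat-1 and 81.8 ± 10.9 FPKM in WT (difference 0.53 ± 0.18, adjusted p = 0.373 in limma). Of 15 genes for mitochondrial DNA expression, 11 had a positive and 4 a negative difference, with 0 called. Lrpprc, which stabilises mitochondrial messenger RNA, averaged 35.1 ± 2.82 FPKM in fat-1 and 27.9 ± 3.35 FPKM in WT (adjusted p = 0.469 in limma). It was the 1 gene of these with an unadjusted p under 0.05. Of 12 regulators of respiratory gene transcription, 0 were called, with 7 positive and 5 negative differences and a median of 0.04. Ppara, a fatty acid-sensing nuclear receptor, was the 1 gene of these with an unadjusted p under 0.05. It measured 9.01, 22.1 and 15.7 FPKM in fat-1 and 8.56, 5.46 and 3.27 FPKM in WT. All 3 fat-1 libraries were above all 3 WT libraries, with a difference of 1.29 ± 0.39 (SE; adjusted p = 0.314 in limma). Etfdh, Lrpprc and the regulator Ppargc1b were separated in the same direction. Ppargc1b measured 2.69, 2.23 and 2.57 FPKM in fat-1 and 1.79, 2.09 and 1.88 FPKM in WT. Of all tested genes, 8.33% were separated in this direction, and 5.80% had an unadjusted p under 0.05 with a positive difference.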

How the data were processed

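Total RNA from kidney was sequenced, and the authors' deposited tables give FPKM per transcript, 1 table per library, on mm10. The submitters' processing notes name featureCounts 1.5.0-p3, HISAT2 2.0.5 and DESeq2 1.20.0, but which tool computed FPKM is not given in the sources. The deposited tables list 27486 protein-coding transcripts, each reaching 0.50 FPKM in at least 1 library, so a gene's sum omits lower transcripts. In 64 lines a symbol had become a date, and these were restored from the other tables or the transcript name. FPKM times length of low genes did not give whole reads (19.9% to 25.1% of values within 0.05 of a whole step, against 10% for even spread), so sequencing depth stays unknown and counting error is not given.

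Values were summed per gene and tested with limma 3.58.1 (R 4.3.3) on log2(FPKM + 1), with trend and robust variance, no covariates, a filter of 1 FPKM in 3 libraries (11698 of 13696 genes) and Benjamini-Hochberg adjustment over all tested genes at 0.05. The log2 scale with a pseudocount of 1 understates changes of low genes. Summed FPKM was 387488 to 421497 in fat-1 and 391237 to 431081 in WT. Lengths came from GENCODE M21 and promoters from RefSeq. Named genes were those with the highest level or the largest difference in each complex, mitochondrially encoded, isoform, core or c-ring genes, and those with an unadjusted p under 0.05; members with separated groups and other examples were added after their values were seen. The members and lists were chosen with earlier results of these data known. Alternatives covered scaling, pseudocount (0.1), filter, robust variance, top transcript and left-out libraries. The fit was first tested on simulated data. Tables and plots used Python 3.11.15, pandas 2.3.3 and matplotlib 3.10.9. Protein sequences were not used here.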

Additional observations from a re-analysis of the deposited data

How the results depend on the processing

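The count of members called was 0 under every alternative run. Medians by complex moved by less than the spread between replicates under all alternatives, but their sign near zero was not fixed: without WT replicate 3 the medians of the nuclear-encoded, complex III and complex IV members were 0.01, 0.01 and 0.02, while without WT replicate 1 they were -0.19, -0.20 and -0.24, with -0.23 for complex V and -0.28 for mitochondrially encoded members. The 21 calls over all genes became 10 with median-of-ratios scaling, 33 with scaling to nuclear-encoded FPKM, 34 with quantile normalization, 4 without a filter and 3 with the top transcript; leaving out 1 library gave 0 to 25. Members with every fat-1 library above WT numbered 2 with nuclear-encoded scaling and 3 with quantile normalization, against 1 in the main fit. The shares of all tested genes under those 2 settings were 8.33% and 8.48%. Those below numbered 6 and 7 (6.74% and 8.30% of all tested genes), against 5 in the main fit. With a library left out, 1 to 9 members were above and 5 to 16 below, beside the shares given earlier. With fat-1 replicate 3 and WT replicate 1 both left out, chosen after seeing the data, 0 genes were called, with 2 of 66 members above and 17 below, against 23.6% and 19.8% of all tested genes. The cause of these shifts was not tested.

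The sign of small differences was not stable. It turned for mt-Co1 with trimmed-mean and median-of-ratios scaling (-0.02 each) and for Cox4i2 with quantile normalization (-0.02). Without both libraries named above it was -0.00 for Atp5a1 and -0.02 for Cox4i1. With 1 library left out, differences ranged from -0.03 to 0.08 for Atp5a1, -0.02 to 0.10 for Atp5b, -0.29 to 0.02 for Atp5g1, -0.05 to 0.13 for Cox4i1 and -0.25 to 0.22 for Cox4i2. They ranged from -0.21 to 0.05 for Cox6a1, -0.21 to 0.02 for Cox6b1, -0.17 to 0.01 for Cyc1, -0.12 to 0.07 for Sdhb and -0.15 to 0.10 for Uqcrfs1. For mitochondrial genes they ranged from -0.31 to 0.08 for mt-Atp8, -0.11 to 0.11 for mt-Co1, -0.32 to 0.09 for mt-Co2, -0.25 to 0.06 for mt-Co3 and -0.26 to 0.04 for mt-Cytb. No paired analysis was possible because the labels carry no replicate numbers common to both groups; the numbers 1 to 3 used here follow accession order and only name libraries. Sequencing depth is unknown, so what depth limits cannot be stated.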

Other observations

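Differences were set against transcript length. Spearman's rho between the log2 difference and the length of the top transcript was 0.24 across all 61 nuclear-encoded members and 0.41 across 39 nuclear-encoded subunits (tissue isoforms left out), and across all 11678 tested genes with a length it was 0.09. Genes are not independent replicates, so this is a description. The median difference was -0.13 over 24 subunits of up to 1000 bases and -0.02 over 15 longer ones. Over all tested genes it was -0.06 for 902 genes of up to 1000 bases and 0.01 for 10776 longer ones. Median deviations of those 902 short genes were 0.15, -0.13 and -0.09 in the fat-1 libraries and -0.02, -0.08 and 0.17 in the WT libraries. Its part in the members' values was not tested.

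In Atp5h, a peripheral stalk gene, transcript Atp5h-208 measured 284, 401 and 426 FPKM in fat-1 and 338, 305 and 313 FPKM in WT, with the lowest and the highest library both fat-1.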
